A study of Mus musculus with 12 samples.

Results

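Transcripts of 9 genes that oligodendrocytes use to build and maintain myelin were followed in hippocampal RNA of TIF-IA CaMKCreERT2 mutant mice and their controls: Mbp, Mobp, Mog, Mag, Cnp, Cldn11, Mal, Aspa and Ermn. They were chosen by name, and every probe that the annotation of the array pairs with one of these symbols was read, which gave 22 probes for 9 of the 19031 genes named on the array. Of these probes, 19 were detected in at least 5 animals, meaning that their detection p-value lay under 0.01, and they cover 8 of the 9 genes. The exception was Ermn, whose single probe stood at background.

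The mutants were Mus musculus of strain C57Bl/6N, labelled with the genotype TIFIACaMKCreERT2 mutant, in which a tamoxifen-activated Cre recombinase expressed under the Camk2a promoter removes the part of Rrn3 that lies between loxP sites (Rrn3 encodes TIF-IA, a factor that RNA polymerase I needs for initiation). The sample labels call the controls wild type, whereas the methods describe littermates that carry the floxed alleles without Cre; both groups received tamoxifen at 2 months of age and were killed 4 weeks later. The Camk2a promoter is active in excitatory forebrain neurons, so the recombination is aimed at neurons and not at the oligodendrocytes that make the transcripts described here. Total RNA came from hippocampal vibratome sections of 6 mutants and 5 controls, and the methods say that both sexes were used without giving the sex of each animal. RNA of mutant 6 was run on 2 arrays, which were averaged, so that 12 arrays gave 11 animals. The animal numbers fall into the 200s (3 mutants, 4 controls) and the 300s (3 mutants, 1 control), and what separates these series is not stated.

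Oligodendrocytes wrap axons in a multilayered membrane, the myelin sheath, which insulates the axon and speeds conduction. Compact myelin is held together on its cytoplasmic side by basic proteins such as MBP, while other proteins sit on its outer surface, face the axon, line the cytoplasm-filled channels or seal the layers with tight junctions. In and around the hippocampus, myelin is dense in the fiber tracts (the alveus, the fimbria and the overlying corpus callosum) and sparser in the cell layers. Transcription of these genes in mature oligodendrocytes depends on SOX10, which binds sites with the core letters ACAAAG, and on MYRF. For MYRF the letters CTGGNAC were searched, in which N stands for any base, so not every match need be a MYRF site.

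Among the start-site windows, those of Mobp, Cnp and Mag are shown because they hold ACAAAG, the letters of the SOX sites, and belong to genes that covaried across the animals. Each is the 250 bases before the start that RefSeq annotates (mouse GRCm38.p6), read 5′ to 3′ on the strand of the gene, with ACAAAG and CTGGNAC on either strand in capitals, so that CTTTGT is ACAAAG on the other strand. The Mobp window is chr9:120149492-120149741 (plus strand), the Cnp window is chr11:100574689-100574938 (plus strand) and the Mag window is chr7:30914864-30915113 (minus strand, the first of 3 annotated starts, of which the third holds neither set of letters).
Mobp: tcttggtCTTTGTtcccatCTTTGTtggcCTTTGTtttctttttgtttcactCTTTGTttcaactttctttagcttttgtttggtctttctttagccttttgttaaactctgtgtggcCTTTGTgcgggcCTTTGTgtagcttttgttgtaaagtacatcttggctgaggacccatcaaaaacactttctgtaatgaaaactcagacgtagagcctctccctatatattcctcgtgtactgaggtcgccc
Cnp: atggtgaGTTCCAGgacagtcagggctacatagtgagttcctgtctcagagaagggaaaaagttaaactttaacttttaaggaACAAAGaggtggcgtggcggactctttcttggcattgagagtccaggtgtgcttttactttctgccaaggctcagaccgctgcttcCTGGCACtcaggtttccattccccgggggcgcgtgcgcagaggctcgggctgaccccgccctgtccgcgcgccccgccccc
Mag: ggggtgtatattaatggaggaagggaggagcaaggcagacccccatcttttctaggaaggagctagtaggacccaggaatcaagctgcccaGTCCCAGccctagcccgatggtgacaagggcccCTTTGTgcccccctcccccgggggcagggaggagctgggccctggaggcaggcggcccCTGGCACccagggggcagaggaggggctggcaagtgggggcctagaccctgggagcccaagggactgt
ACAAAG occurred 6 times in the Mobp window, always on the other strand, and 1 time each in the Cnp and Mag windows. Of 32851 start-site windows of the same length searched, 16.5% held ACAAAG at least once and 0.137% at least 3 times. The highest number in any of these windows was 6, found in 1 of them, that of Mobp. Start-site windows outside this set were not searched, so the maximum holds for these windows only. CTGGNAC occurred 2 times each in the Cnp and Mag windows, 1 time in that of Mog and not in that of Mobp, against 16.1% of all windows searched with at least 1. The motifs did not overlap, and they were chosen with the windows in view. Windows were found for 8 of the 9 genes. Those of Cldn11, Mal, Aspa and Ermn held neither set of letters, which says nothing about binding of either factor. For Mbp no window was at hand.

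The largest feature of the myelin genes was a spread between animals that the genotypes shared. Across the 11 animals, the 8 detected genes spanned 1.07 (Mbp) to 2.71 (Aspa) log2 units between the lowest and the highest animal, corresponding to 2.10-fold and 6.54-fold. These spans are those of the brightest probe of each gene. The other probes of Mbp spanned 0.92 (ILMN_3011353) to 1.91 (ILMN_3081854). Whether the high brightness of the Mbp probe used here narrowed its span was not tested. The median span over the 9 genes was 2.06, beside 0.87 over the 11338 named genes detected, and all 8 detected genes spanned at least 1 log2 unit, beside 37.7% of the genes detected. The repeat array of mutant 6 gives the technical difference: its arrays differed by at most 0.29 for the 8 genes (Cnp, 10.21 and 10.50), with a median of 0.20, beside 0.16 over the detected genes. A span over 11 animals is not comparable with the difference of a single pair of arrays, so only the size of the technical difference is taken from this pair. For Mbp the arrays gave the same value, 14.30, because the probe held the same brightness rank of 29 on both before quantile normalization. In bulk RNA of this kind, fewer oligodendrocytes and less myelin RNA per oligodendrocyte cannot be told apart.

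**Figure D1:**
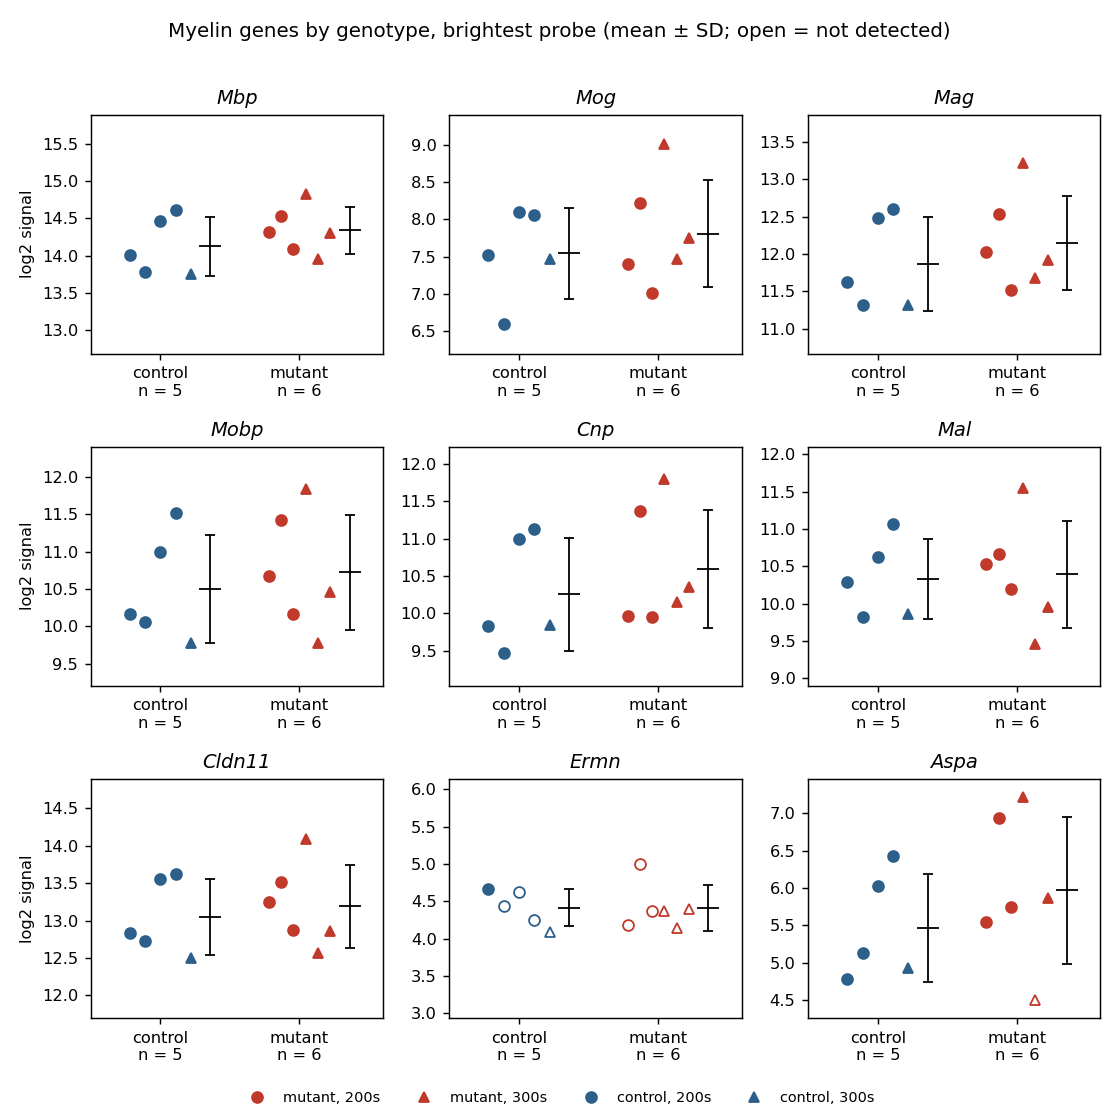
Log2 signal of the brightest probe of each myelin gene, 1 symbol per animal, for 5 controls (blue) and 6 mutants (red). Circles are animals numbered in the 200s and triangles those in the 300s, open symbols were not detected, bars give mean ± SD, and every panel has the same height in log2 units. The genotypes overlap in all 9 panels, and mutant 4 is the highest animal in the 8 panels other than Ermn.

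Among the proteins of compact myelin, Mbp, which encodes the basic protein that joins the cytoplasmic faces of the membrane, was read by one of the brightest probes of the array, ranking between 1 and 81 of 45135. Its brightest probe had log2 signals of 13.95 (lowest), 14.31 (median) and 14.82 (highest) in the 6 mutants and of 14.01, 13.78, 14.46, 14.61 and 13.75 in controls 1 to 5. Only mutant 4 exceeded all controls, and the other 5 mutants lay within the control range. The mutant mean was higher by 0.21 ± 0.19 (log2, SE, 95% interval -0.21 to 0.64), which was not significant (limma, adjusted p = 0.996, exact permutation p = 0.32). Mobp, a second basic protein of compact myelin, gave 9.78, 10.57 and 11.83 (lowest, median and highest) in the mutants against 10.16, 10.06, 10.99, 11.51 and 9.78 in controls 1 to 5. Its groups shared nearly the same floor, and again mutant 4 alone stood above the controls. The difference was 0.22 ± 0.41 (log2, SE), with an interval of -0.68 to 1.13. All 5 probes of Mobp were detected, differed by 0.17 to 0.22 in the same direction, and followed the brightest with r of 0.90 to 0.99 over the 11 animals.

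Of the surface proteins, Mog encodes the glycoprotein on the outermost layer of the sheath and Mag an adhesion molecule on the membrane that faces the axon. Log2 signals of Mog were 7.02, 7.61 and 9.01 (lowest, median and highest) in the mutants and 7.52, 6.6, 8.10, 8.06 and 7.47 in controls 1 to 5, so that mutants 2 and 4 exceeded the controls and control 2 was the lowest animal. Mag gave 11.51, 11.98 and 13.22 in the mutants and 11.62, 11.31, 12.48, 12.61 and 11.32 in the controls, and 5 of the 6 mutants lay within the control range. For neither gene did the difference pass (Mog 0.26 ± 0.37, Mag 0.28 ± 0.35, log2 difference and SE, exact permutation p of 0.54 and 0.47).

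Cnp encodes the cyclic nucleotide phosphodiesterase that keeps the cytoplasmic channels of myelin open, Cldn11 the claudin of its tight junctions and Mal a raft-associated proteolipid that sorts proteins into the membrane. Cnp separated 4 animals most plainly: mutants 2 and 4 (11.37 and 11.80) and controls 3 and 4 (11 and 11.13) stood well above the rest, while the other 7 animals lay between 9.47 and 10.35. The Cnp means were 10.60 ± 0.79 in the mutants and 10.25 ± 0.76 in the controls (SD, n = 6 and 5), a difference of 0.34 ± 0.42 (SE). For Cldn11 the mutants ranged from 12.57 to 14.09 with a median of 13.06, and controls 1 to 5 gave 12.83, 12.73, 13.55, 13.63 and 12.50, a difference of 0.14 ± 0.29. Mal had the smallest difference of the detected genes, 0.06 ± 0.35, with mutants from 9.45 to 11.55 (median 10.36) and controls at 10.29, 9.81, 10.62, 11.07 and 9.85. Here mutants gave both the highest animal (mutant 4) and the lowest (mutant 5).

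Aspa encodes aspartoacylase, the oligodendrocyte enzyme that releases acetate from N-acetylaspartate for lipid synthesis. It was dimmer than the structural genes and had the widest span: 4.51, 5.80 and 7.21 in the mutants and 4.79, 5.13, 6.02, 6.42 and 4.93 in controls 1 to 5. In mutant 5, the lowest animal, the probe was not detected, so the 6.54-fold span of Aspa rests on a signal at background on its low side. Its difference of 0.51 ± 0.48 (95% interval -0.54 to 1.57) was the largest of the 8 in these values and was also within the spread between animals (exact permutation p = 0.35). It depended on the background correction, falling to 0.24 in the deposited log2 values and to 0.24 without background correction, below Cnp at 0.31 and 0.32. Ermn encodes ermin, a cytoskeletal protein of mature oligodendrocytes. Its probe was detected in 1 of the 11 animals (control 1, 4.67) and gave 4.09 to 4.99 over all of them, so no fold is given.

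Across the 9 genes, 0 passed an adjusted p under 0.05, where 0.00222% of all 45135 probes did, and 0 passed an unadjusted p under 0.05, where 3.95% did (limma, Benjamini-Hochberg over all probes). The genotypes overlapped for all 9 genes, whereas they did not overlap for 0.332% of all probes. The median difference over the 9 genes was 0.22 (log2, mutant minus control), beside 0.01 over the detected genes. It was positive for 8 of the 8 detected genes, beside 53.3% of all detected genes, but these 8 genes varied together across animals and are not separate observations of a direction. Mutant 4 weighed most on this direction, since without it the median difference was 0.02. It was 0.39 without control 4, 0.34 without control 3, 0.33 without mutant 3, 0.12 without control 5 and 0.11 without control 2.

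Split by number series, the median difference over the detected genes was 0.05 within the 200s (7 of 8 positive) and 0.79 within the 300s (8 of 8 positive), the latter against the single control 5. A genotype by number series interaction passed in 0 of the 9 genes at an adjusted p under 0.05 and in 0 at an unadjusted p under 0.05, and in 0% of all probes at the former (limma). For Mag, where the estimate was the highest of the brightest probes, it was 0.93 ± 0.81 (SE), with the lone control of the 300s assumed to vary like the others.

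The myelin genes covaried closely. Among the 8 detected genes, all 28 pairs had Pearson r between 0.76 and 0.98 over the 11 animals (median 0.909), and Spearman rho had a median of 0.873. All 28 pairs passed after Benjamini-Hochberg adjustment over the 36 pairs of the 9 genes, for r and for rho (permutation test, 100000 resamples, adjusted p for r between 6e-05 and 0.00774). By Pearson r, the closest pair was Mobp and Cldn11 (r = 0.976, rho = 0.982, each with permutation p = 1e-05, the smallest these resamples can give), and the least close was Mog and Aspa (r = 0.759, permutation p = 0.00602, rho = 0.727, permutation p = 0.0142). By rho, the closest pair was Mbp and Mobp (0.991) and the least close Mog and Cldn11 (0.673). Without the 2 animals farthest from the median of the first gene, r of the 28 pairs ran from 0.573 (Mog and Mal) to 0.961, and within the 7 animals of the 200s from 0.707 to 0.992. The 8 pairs with Ermn had r of 0.255 to 0.414, and 0 of them passed. Removing the genotype means left the median over the 36 pairs at 0.891, against 0.889 with them. Every point in these correlations shares the dissection, the RNA and the array of its animal. The share of passing pairs among other genes was not computed. Among the other named genes detected, 3.16% had r of at least 0.8 with the mean of the 9 genes. The 9 genes were chosen with earlier results of these data known, which limits what these p-values can say.

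**Figure D2:**
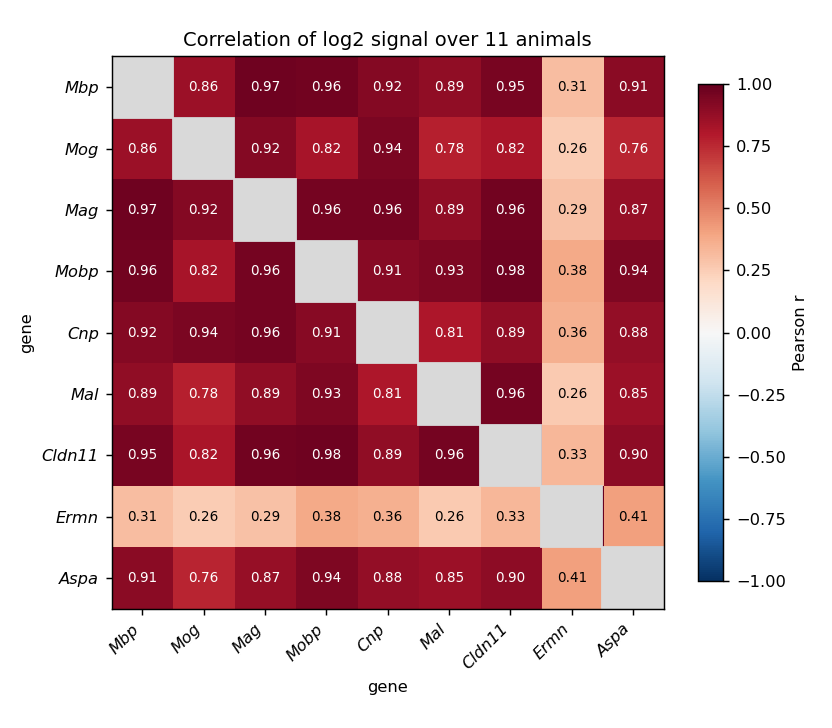
Pearson correlation of log2 signal between each pair of myelin genes over 11 animals, with the value printed in each cell. The 28 pairs among the 8 detected genes lie between 0.76 and 0.98, and the 8 pairs with Ermn between 0.255 and 0.414.

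The order of the animals was therefore much the same from gene to gene. Mutant 4 was the highest animal for all 8 detected genes, and mutants 2 and 4 with controls 3 and 4 were the 4 highest animals for each of the 8, an arrangement that crosses genotype and, with mutant 4 from the 300s, number series. The lowest animal was control 5 for Mbp, Mobp and Cldn11, control 2 for Mog, Mag and Cnp, and mutant 5 for Mal and Aspa. The mean of the 9 genes, each taken as its deviation from its own mean, ran from -0.59 (control 2) to 1.03 (mutant 4) and stood at 0.62, 0.52 and 0.36 in mutant 2, control 4 and control 3. The next animal below them was mutant 1 at -0.09, and this gap of 0.44 was the widest in the order.

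**Figure D3:**
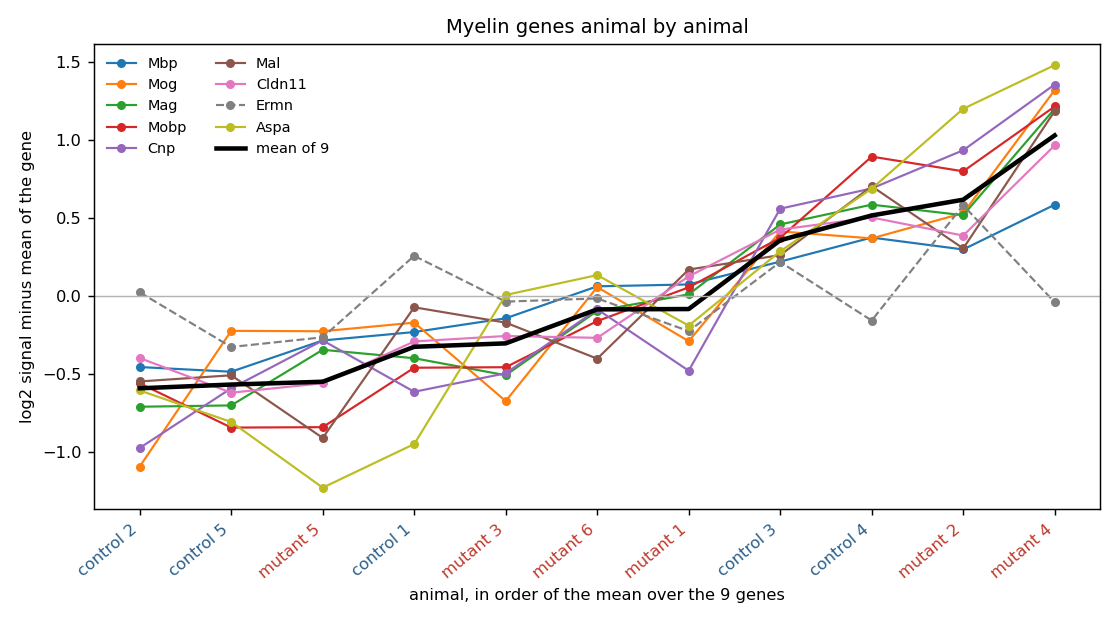
Log2 signal of each myelin gene minus its own mean, for the 11 animals in the order of the mean over the 9 genes (thick line, from -0.59 to 1.03). The 8 detected genes climb together to controls 3 and 4 and mutants 2 and 4, while Ermn (dashed) does not follow.

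The probes of one gene did not always run together, and Mbp was the clear case. Its 5 probes were all detected in at least 5 animals. Relative to the brightest (ILMN_2737200), the probes ILMN_3081854, ILMN_1227299 and ILMN_2639865 had r of 0.96, 0.81 and 0.67. ILMN_3011353, with mean log2 signals of 9.58 ± 0.33 in the mutants and 9.83 ± 0.25 in the controls (SD), ran the other way, with r = -0.777 and rho = -0.791 over the 11 animals, r = -0.65 without the 2 farthest animals and r = -0.60 within the 200s. This pair was singled out after its values were seen, so no test is given. The same probe had r = 0.779 with the mean of the CA1 markers and 0.579 with that of the dentate gyrus markers, over the same 11 animals and arrays. For the microglia, astrocyte, neuron and CA3 and CA2 markers r was 0.458, 0.408, 0.343 and 0.272, so positive values were not limited to neuronal lists. Endothelial and Schwann cell markers gave -0.032 and 0.076. The other oligodendrocyte lists had negative r, from -0.646 to -0.064. The thalamus and choroid plexus lists form clusters of animals, so no r is given for them. The 4 animals lowest for ILMN_3011353 were mutant 1 (9.20), mutant 4 (9.32), mutant 2 (9.47) and control 4 (9.47). These same 4 animals form the upper cluster of the choroid plexus markers. Control 3, in the upper thalamus cluster, read 9.84. What this overlap reflects was not tested. The genotype difference of ILMN_3011353 was -0.24 ± 0.17 (SE), against 0.11 to 0.54 for the other 4 probes, and none of the 5 passed (limma, adjusted p = 0.996). As background, the Mbp locus also gives rise to the golli transcripts, which start farther upstream and are made in neurons and immune cells as well. Which transcript this probe reads was not tested. For Cnp and Mal, the second detected probe followed the brightest with r of 0.94 and 0.91, for Mag with 0.82.

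**Figure D4:**
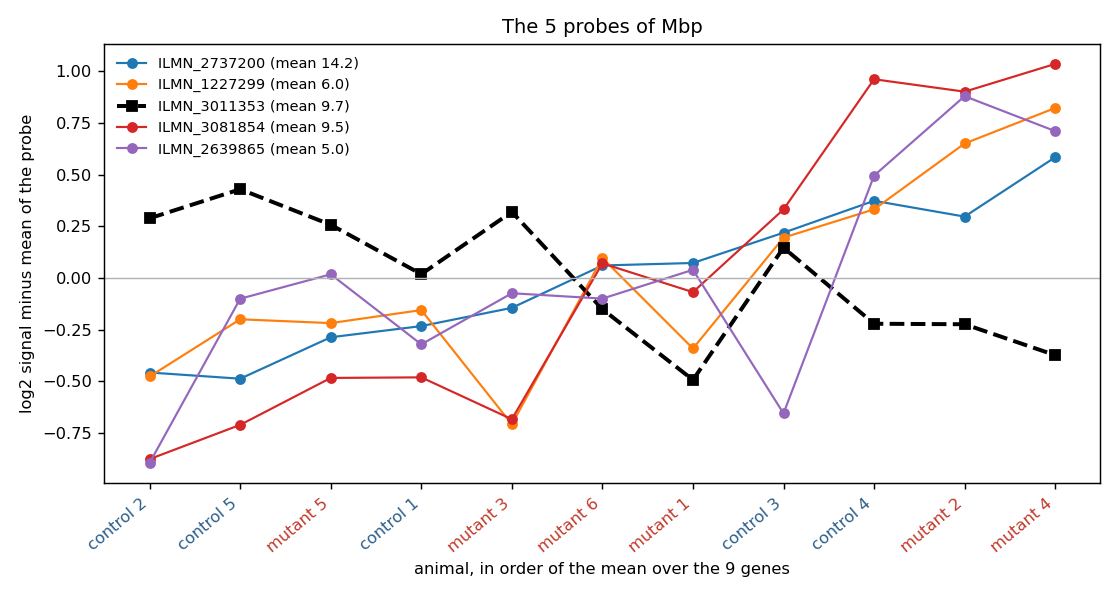
Log2 signal of the 5 Mbp probes minus the mean of each probe, for the 11 animals in the order of the mean over the 9 myelin genes. The dashed line with squares (ILMN_3011353) runs opposite to the brightest probe (ILMN_2737200), with r = -0.777 between them.

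Other transcripts of mature oligodendrocytes varied with the 9 genes. Of 40 further genes listed for these cells, 35 had a named probe and 29 were detected, and 25 of the 29 had r of at least 0.8 with the mean of the 9 genes, beside 3.16% of the other named genes detected. The mean of the 29 genes had r = 0.991 and rho = 0.991 with that of the 9 genes, and r = 0.981 without the 2 farthest animals. The genotype difference was positive for 27 and negative for 2 of them (median 0.23), and 0 passed at an adjusted p under 0.05 or at an unadjusted p under 0.05 (limma). By unadjusted p, the first 3 of this list were Gjc3, a connexin, Galnt6, a glycosyltransferase, and Lpar1, a lysophosphatidic acid receptor (0.49 ± 0.38, log2, SE). Gjc3 was detected in 1 animal and Galnt6 in 0. Klk6, a secreted protease of oligodendrocytes singled out after its values were seen, had the widest span of the list, 4.84 log2 units between animals, although it was not detected in 1 mutant and 1 control, so that the low side of this span is background, with means of 6.72 ± 1.92 in the mutants and 5.94 ± 1.68 in the controls (SD).

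The transcription factors of the lineage followed the sheath genes in part. Of 12 listed, 9 were detected, their mean had r = 0.944 with that of the 9 myelin genes (0.869 without the 2 farthest animals), and 0 passed for a genotype difference. Sox10, with r = 0.953, and Olig1, with r = 0.914, were among the 4 with r of at least 0.8 and were singled out after their values were seen. By unadjusted p the list was led by Nkx6-2, a homeobox factor of oligodendrocyte maturation (0.61 ± 0.39, log2, SE, r = 0.925), St18, a zinc finger factor (-0.34 ± 0.28, r = -0.54), and Olig2, whose probe was detected in 2 of the 11 animals. Zfp536, another zinc finger factor, likewise did not follow (r = -0.29), and neither probe of Myrf was detected in any animal.

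Transcripts of oligodendrocyte precursors, the dividing cells from which oligodendrocytes form, followed the myelin genes less closely by value. Of 16 listed, 13 were detected, and their mean had r = 0.682 and rho = 0.60 with that of the 9 myelin genes (0.496 without the 2 farthest animals), with the same 4 animals at the top. The median r of the single genes was 0.158, beside 0.923 for the mature oligodendrocyte genes and 0.774 for the transcription factors, and 1 of the 13 reached 0.8. That gene was Enpp6 (r = 0.938), which marks newly forming oligodendrocytes. Pdgfra and Cspg4, the receptor and the proteoglycan that define precursors, had r of 0.21 and -0.28. The genotype difference was positive for 4 and negative for 9 of the 13 (median -0.09), and 0 passed. The smallest unadjusted p values belonged to Ptprz1, a receptor phosphatase (-0.40 ± 0.20), Bmp4, a secreted growth factor (0.38 ± 0.20), and C1ql1, which was not detected.

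Genes of sterol and myelin lipid synthesis divided by value into those that followed myelin and those that did not. The fatty acid elongase Elovl1, the ceramide synthase Cers2 and the desaturase Scd1 had r of 0.89, 0.89 and 0.88 with the mean of the 9 genes, whereas Sqle and Nsdhl, enzymes of cholesterol synthesis, had r of -0.90 and -0.82; these 5 were singled out after their values were seen. Of 23 genes listed, 16 were detected, and 2 of the 16 had an unadjusted p under 0.05, both with lower signal in the mutants, beside 3.95% of all probes at that p in either direction. Over all the other oligodendrocyte lists together, these were the only 2 among 67 detected genes, so no excess is read from this list. None (0) passed the adjusted p. Sc5d, a desaturase of late cholesterol synthesis, gave 6.58 ± 0.22 in the mutants and 7.09 ± 0.23 in the controls (SD), a difference of -0.51 ± 0.13 (SE, unadjusted p = 0.00202, exact permutation p = 0.00649) that did not pass the adjustment over all probes (limma, adjusted p = 0.996). Cyp51, the sterol demethylase, gave a difference of -0.34 ± 0.14 and Dhcr7, the last reductase of the pathway, one of -0.32 ± 0.15. Sc5d itself had r = -0.40 with the mean of the 9 genes.

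By a fixed rule, the 10 genes outside the list whose log2 signal correlated highest with the mean of the 9 genes over the 11 animals were Phldb1, Pigh, Prr18, Otud7b, Ephb1, Itgb4, Tmem63a, Pigz, Cyp27a1 and Mboat1, with r from 0.995 to 0.976. They include a pair of enzymes of glycosylphosphatidylinositol anchor synthesis (Pigh and Pigz), an ephrin receptor (Ephb1), a laminin-binding integrin subunit (Itgb4), a mechanosensitive channel (Tmem63a) and a sterol hydroxylase (Cyp27a1). Phldb1, the nearest, spanned 1.74 log2 units and differed by 0.20 ± 0.32 between genotypes. The 5 lowest were Nudt3, Plppr2, Nptx1, St8sia5 and Crtac1, with r from -0.962 to -0.934, of which Nptx1 encodes a pentraxin of neuronal synapses and St8sia5 a sialyltransferase of ganglioside synthesis.

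Of the neighboring tissues, the mean of the thalamus markers was high in the 4 animals with the highest myelin signal and that of the choroid plexus markers in 3 of them. The mean of the neuron markers ran the other way. Of 18 thalamus markers listed, 16 were named and 11 of these detected in at least 5 animals. The other 5 named (Lef1, Ptpn3, Plekhg1, Synpo2 and Rab37) were each detected in at most 3 of the 11 animals. The mean deviation of the 11 detected markers ran from -0.88 to 1.11 in the mutants and from -1.03 to 1.98 in the controls. It put the animals into 2 separate clusters, with a gap of 51.6% of the range, and the upper cluster was formed by control 4 (1.98), mutant 4 (1.11), mutant 2 (1.07) and control 3 (0.98), which are the 4 animals with the highest myelin signal. Because of the clusters no correlation of this mean with the myelin mean is given over all 11 animals. The single markers were uneven: 7 of the 11 detected had r of at least 0.8 with the myelin mean over all animals. Slc17a6, Ntng1 and Pdp1 had r of 0.73, 0.72 and 0.60, and Calb2 went the other way with r = -0.26. Within the 7 animals of the lower cluster the thalamus and myelin means had r = 0.022 and rho = -0.036, while the myelin mean still ran from -0.59 to -0.09. Choroid plexus markers (10 of 11 named genes detected, from -1.76 to 2.21 in the mutants and from -1.76 to 1.96 in the controls) also formed clusters, shared 3 of these 4 animals in their upper cluster, and had r = -0.278 within the lower 7. Control 3, high for myelin, lay in the lower choroid plexus cluster at -1.47. Mutant 1 had the highest choroid plexus mean (2.21) with a myelin mean of -0.085.

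**Figure D5:**
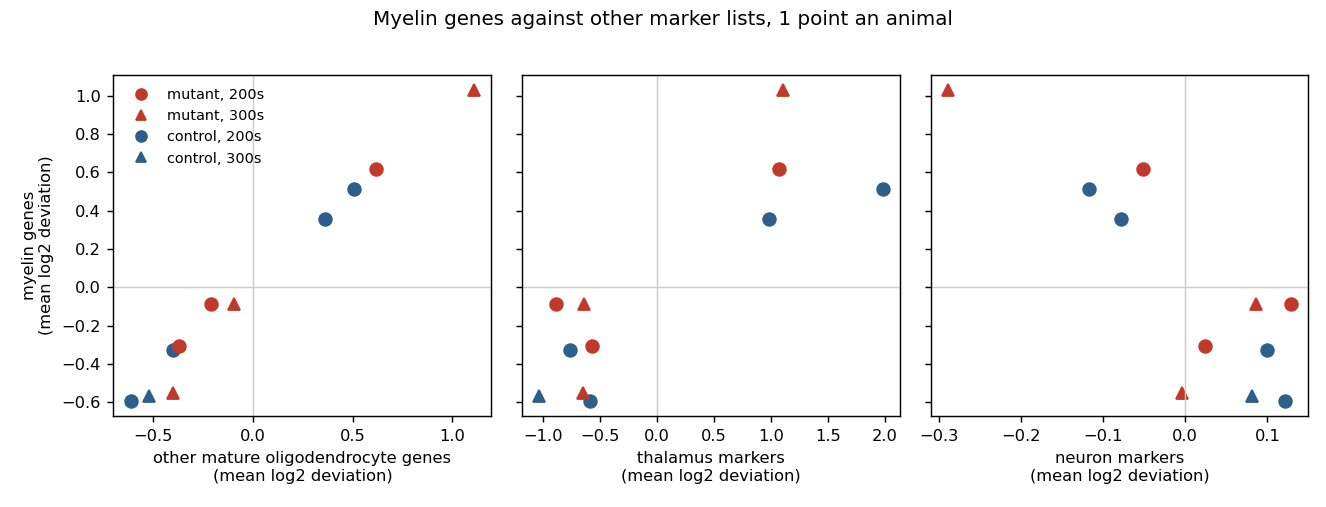
Mean log2 deviation of the 9 myelin genes (vertical axis) against that of other mature oligodendrocyte genes, thalamus markers and neuron markers (horizontal axes), 1 symbol per animal, circles for the 200s and triangles for the 300s. The first list follows the myelin genes with r = 0.991, the second splits the animals into 7 and 4, and the third runs the other way with r = -0.845.

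Neuron markers, of which 8 of 10 were detected, had a mean between -0.29 and 0.13 in the mutants and between -0.12 and 0.12 in the controls, with r = -0.845 and rho = -0.664 against the myelin mean, and r = -0.704 without the 2 farthest animals. The single markers were uneven: the glutamate transporter gene Slc17a7 and Camk2a had r of -0.89 and -0.80, whereas Gad1, Eno2 and Rbfox3 had r of 0.49, 0.16 and 0.05, and the median of the 8 was -0.296. The markers of CA1 pyramidal cells (6 of 6 detected) had r = -0.788, those of CA3 and CA2 (8 of 10) r = -0.68 and those of dentate granule cells (7 of 9 named) r = -0.50. The means of all 3 field lists thus ran opposite to myelin by value, with r of -0.588, -0.471 and -0.409 without the 2 farthest animals. Single markers went the other way, Wfs1 of CA1 with r = 0.70 and Dock10 and Pdia5 of the dentate gyrus with 0.31 and 0.25. For astrocyte, microglia, endothelial and Schwann cell markers r was -0.237, -0.402, 0.123 and 0.056. Of the Schwann cell markers, which would point to peripheral nerve, 3 of 6 named genes were detected. These correlations describe 11 animals and carry no test, and the part of the neighboring tissue in the spread of the myelin genes was not tested.

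The targeted gene and the depth of the arrays were checked on the same animals. Rrn3 had log2 signals of 7.80 ± 0.10 in the mutants and 8.34 ± 0.11 in the controls (SD, n = 6 and 5), a difference of -0.55 ± 0.07 (SE). Its unadjusted p was 6.68e-06 (limma), and its exact permutation p was 0.00216, the smallest possible. The difference did not pass the adjustment over all probes (limma, adjusted p = 0.151). The paper counts Rrn3 among the transcripts it calls by unadjusted p, and reports a significant loss of TIF-IA mRNA by qPCR. Whether the Rrn3 probe lies in the removed part was not tested. Between 19193 and 21889 of the 45135 probes were detected per array, at median intensities of 83.1 to 108.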

How the data were processed

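The authors hybridised RNA of 11 animals to 12 one-color Illumina MouseWG-6 v2 BeadChips. They deposited for each probe an intensity (linear bead brightness, averaged per probe) without background subtraction or scaling between arrays. Beside it they deposited a detection p-value, whose method is not given in the sources used here. They also deposited log2 values, which the methods describe as background subtracted and quantile normalized; the submitters' processing notes name limma. The columns of these values have medians of 6.6 to 6.64, where uncorrected signals lie, and rank like the intensities of the same array (rho of at least 0.9996), so their direction is settled and the form of background subtraction in them is unknown. They served as an alternative.

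From the intensities, 954 lines without a probe name were left out and 45135 probes were kept, of which the platform annotation gives 34773 a single symbol, 18 several and 10344 none. Normexp background correction that uses the detection p-values (offset 16), quantile normalization and log2 followed in limma 3.58.1 (R 4.3.3). The difference of mutant minus control was then estimated per probe by lmFit and eBayes from the 11 animals, with Benjamini-Hochberg adjustment over all probes, and each gene was read at its brightest probe. Single genes also had an exact two-sided permutation test over 462 splits, and pairs of genes a two-sided permutation test with 100000 resamples. The steps were tested on simulated signals. The animals are separate samples by their numbers, and precision depends on how few arrays there are.

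The members and the gene lists were chosen with earlier results of these data known. Genes named are the 9 members, from each other oligodendrocyte list the 3 with the smallest unadjusted p (0 were called), and the 10 and 5 genes most and least like the mean of the 9, with others marked where they were singled out later. A list mean was taken as clustered where its largest gap exceeded its range divided by 3. Alternatives were the deposited values, no background correction, cyclic loess, filters on dim probes, the mean over probes, a single array of mutant 6, number series or replicate number as a block, and leaving out each animal.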

Additional observations from a re-analysis of the deposited data

Results flagged for a closer look

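A single value of the myelin genes stood far from the rest of its group. Ermn in mutant 2 had a log2 signal of 4.99, with a gap to the next of the 6 mutants that made up 0.705 of the range of the group. The probe was not detected in that animal. In all, 18 groups (9 genes in 2 genotypes) were compared in this way, and chance gives about 1 in 20.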

How the results depend on the processing

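Of 313 values recomputed under an alternative, 308 were counted as unchanged and 5 changed sign. For the difference of a single gene, unchanged means the same sign and the same side of the threshold. For counts of calls it means a similar count. For the medians and the correlation of the myelin and thalamus means, it means a move within a spread of the main values. The median difference of 0.02 without mutant 4 therefore counts as unchanged. The number of calls stayed 0 for the 9 myelin genes, for the other oligodendrocyte genes and for the interaction under every alternative run; without control 5 the interaction could not be fitted, because the 300s then hold no control. The median difference of the 9 genes ran from 0.20 to 0.27 over the alternatives and from 0.02 (without mutant 4) to 0.39 (without control 4) when an animal was left out. Their median span ran from 1.78 (no background correction) to 2.11 (cyclic loess), and the median r of the pairs from 0.872 to 0.908; without mutant 4 they were 1.61 and 0.823, and leaving out any other animal gave 1.91 to 2.06 and 0.875 to 0.909. The sign of 3 single differences turned when an animal was left out: Mal ran from -0.17 (without mutant 4) to 0.25 and was also negative without control 2 (-0.07) and control 5 (-0.06), Cldn11 from -0.038 to 0.29 and Mobp from -0.00139 to 0.47, both negative without mutant 4 only. With the replicate number as a block (replicate block), which leaves mutant 6 without a partner, the median difference was 0.27 with 0 calls. Deviations of same-numbered animals correlated at 0.265, -0.051, -0.05, 0.562 and 0.546, so the numbers were not taken as pairs. Dim probes limit what can be said of Ermn and of the low animals of Aspa.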
